A study of Prunus persica with 84 samples.

Results

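A set of 154 genes, of the 26879 in the count table, was defined by a brief rise in peach floral buds of the genotype John Boy (JB) after 200 h of chilling that the genotype KV021779 (LP) did not share during chilling. The genes were chosen on the mean of each group in CPM (counts-per-million, each count divided by its column total and scaled), with 0.5 added before any ratio. JB at 200 h had to be the highest of the 7 JB chilling times, to reach 5 CPM and to stand at least 4 times above JB at 0 h, and no LP chilling time was allowed to reach 2 times LP at 0 h. The first condition left 3872 genes, the minimum level 2315 and the fold over 0 h 250, and the limit on LP then kept 154 of these 250 (61.6%). Chilling values thus chose the genes and are given below as a description, with no test. The tests rest on the buds at 22 °C, whose libraries the choice did not use. The rule was not neutral between the genotypes, since with 0.5 added a gene with few LP reads meets the limit on LP. Of the 154 genes, 60 stayed under 1 CPM in all LP chilling groups. Calls of a lower level in LP than in JB at 22 °C are therefore not independent of the choice. The absence from LP held for chilling alone, because most of these genes rose in LP later, at 22 °C.

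The series profiled floral buds of 2 peach genotypes with different flowering times by messenger RNA sequencing. All groups were cut shoots standing in water, first at 4 °C and then at 22 °C. JB and LP were each sampled at 0, 100, 200, 400, 600, 800 and 1000 h of chilling and at 1, 4, 8, 12, 16 and 20 d of warmth, and LP also at 24 and 28 d, the end of warmth being the start of bloom in each genotype. These 28 groups had 3 libraries each, 84 in all. Every warm group had received the full 1000 h of chilling, and shoots kept without chilling are not among the groups, so cold and time on the cut shoot cannot be told apart. Whether replicates came from different trees is not stated. The p-values below therefore describe the variation among these libraries alone, some or all of which may be technical. The samples were whole buds, in which fewer cells of a type and less RNA per cell cannot be told apart.

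Buds of temperate fruit trees enter winter dormancy, a state in which growth does not resume even in warmth until enough cold has been received. The amount of cold needed is a property of the genotype, and once it has been met, warmth drives the growth of the flower organs until bloom. Gene expression in the bud changes over both phases, and the dormancy-associated MADS-box genes (DAM genes), transcription factors tied to the dormant state, fall as cold accumulates. The count table gives the 154 genes by identifier only and the reference table used here shares none of these identifiers, so no name, product or role is given for them.

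Total counts ran from 8021919 to 26346177 in JB libraries and from 8823829 to 16989188 in LP libraries. As a check of the tissue label, PRUPE_DAM4, PRUPE_DAM5 and PRUPE_DAM6 were abundant before chilling in both genotypes, with group means of 451, 96.8 and 160 CPM in JB and 607, 101 and 174 CPM in LP. The other 3 DAM genes of the table were low, with PRUPE_DAM1 at 2.70 CPM in JB and 2.22 CPM in LP, PRUPE_DAM2 at 0.385 and 0.373 CPM and PRUPE_DAM3 at 5.25 and 6.58 CPM. Replicate 3 of JB at 12 d and replicate 3 of LP at 28 d stood apart from their groups. The median over the 154 genes was 3.07 CPM in that JB library against 4.67 and 4.69 CPM in the others of the group, and 1.56 CPM in that LP library against 2.53 and 2.71 CPM. Counts of called genes that rest on these libraries are given with and without them.

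During chilling the 154 genes formed a sharp peak in JB. The median of their group means was 1.70 CPM at 0 h, 5.81 CPM at 100 h and 17.8 CPM at 200 h, and then 3.83 CPM at 400 h, ending with 1.73 CPM at 1000 h. The 3 JB libraries of 200 h had medians of 17.9, 18.0 and 16.4 CPM, and the 3 JB libraries of 0 h had 1.84, 1.74 and 1.90 CPM. Together the genes made up 0.0874% of all counts in JB at 0 h and 0.728% at 200 h. In LP the median of their group means lay between 0.843 and 1.23 CPM at every chilling time, highest at 0 h. The LP libraries of 200 h had medians of 0.820, 0.880 and 0.768 CPM, below every JB library of chilling. The median over all tested genes was 15.1 CPM in JB at 200 h and 13.6 CPM in LP at 200 h.

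**Figure D1:**
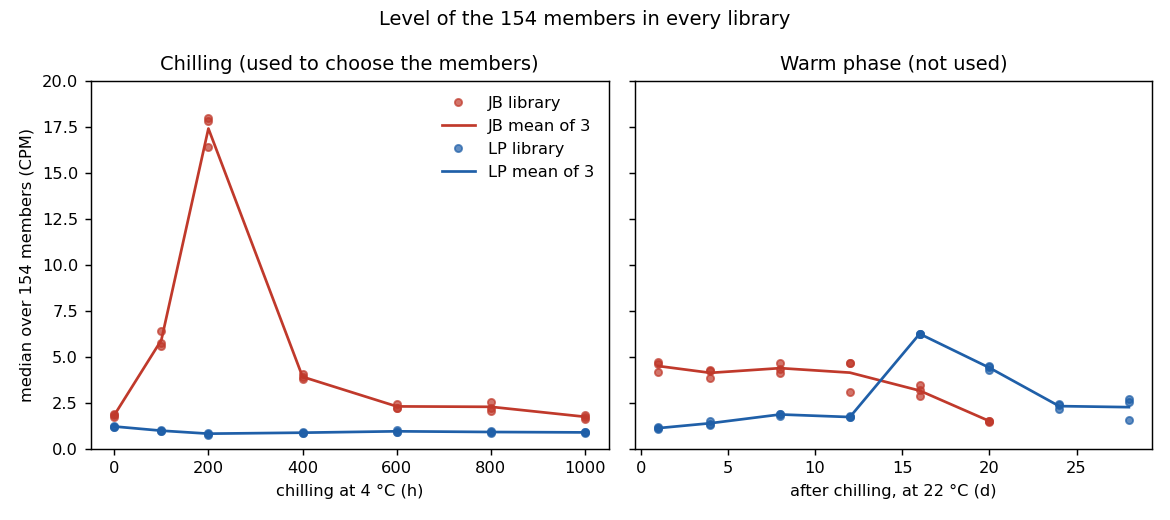
Median over the 154 genes in CPM (vertical axis) in each library (points) and the mean of the 3 library medians (lines), for JB in red and LP in blue, against hours at 4 °C (left) and days at 22 °C (right). JB libraries peak at 16.4 to 18.0 CPM at 200 h, and LP libraries stay near 1 CPM in chilling and reach 6.24 to 6.27 CPM at 16 d of warmth.

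The sampled times on either side of the peak, and the end of chilling, were set against 0 h and 200 h. At 100 h 102 of the 154 were already at least 2 times above JB at 0 h, where 4.21% of all 21168 tested genes were. At 400 h 56 were still so (background 4.33%), at 600 h 23 (background 8.56%) and at 1000 h 11 (background 11.1%). JB at 200 h was at least 2 times above JB at 100 h for 115 genes (background 2.53%) and at least 2 times above JB at 400 h for 133 (background 4.27%). At 1000 h 25 genes were at or below 50% of their JB level at 0 h (background 7.71%). These counts use the libraries that chose the genes, and nothing is read from them.

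The ratio of JB at 200 h to JB at 0 h ran from 4.04 to 217, with a median of 6.64, and 37 genes reached 10. Mean levels in JB at 200 h ran from 5.13 to 552 CPM, with 46 genes below 10 CPM and 19 at or above 100 CPM. The 4 highest there were PRUPE_7G137000, PRUPE_1G245400, PRUPE_1G127800 and PRUPE_6G277500. The 4 with the largest ratios were PRUPE_7G137000, PRUPE_1G393100, PRUPE_5G057900 and PRUPE_1G039200.

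PRUPE_7G137000 headed both orders. Its 3 libraries held 2.54, 2.05 and 1.54 CPM in JB at 0 h, 90.3, 80.2 and 81.8 CPM at 100 h, 545, 561 and 552 CPM at 200 h, and 13.4, 12.9 and 13.4 CPM at 400 h. In LP they held 1.99, 1.84 and 1.66 CPM at 0 h, then 2.82, 3.21 and 3.34 CPM at 200 h. The JB libraries of 100 h and of 200 h stood clear of every LP chilling library. PRUPE_5G057900 had a narrower peak. It had 7.23, 8.29 and 7.80 CPM in JB at 100 h, 182, 171 and 157 CPM at 200 h, and 3.90, 5.86 and 5.50 CPM at 400 h. In LP at 100 h it had 7.77, 7.46 and 7.08 CPM, which overlaps JB at the same time.

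PRUPE_1G393100 went from 0.175, 0.205 and 0 CPM in JB at 0 h to 45.3, 40.5 and 37.0 CPM at 200 h. PRUPE_1G039200 had 13.8, 16.4 and 13.2 CPM in JB at 200 h, from 0.0875, 0.103 and 0.103 CPM at 0 h. Both were nearly unread in JB before chilling. PRUPE_6G277500 was expressed in both genotypes at all times. It rose from 28.3, 34.8 and 30.9 CPM to 382, 333 and 377 CPM in JB between 0 and 200 h, and LP at 200 h had 48.4, 47.6 and 50.8 CPM.

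A lack of response in LP did not mean a lack of expression in LP. Of the 154 genes, 50 reached 5 CPM in some LP chilling group, and 60 stayed under 1 CPM in all of them. PRUPE_1G245400 stood at 100, 100 and 112 CPM in LP at 0 h, above the 47.1, 46.9 and 40.2 CPM of JB at 0 h, and at 105, 102 and 100 CPM in LP at 200 h. The JB libraries of 200 h held 439, 452 and 436 CPM of it. PRUPE_1G127800 had 84.3, 75.9 and 79.5 CPM in JB at 0 h and 487, 457 and 381 CPM at 200 h, against 10.4, 11.8 and 9.61 CPM in LP at 200 h. Before chilling 28 of the genes were at least 2 times higher in JB than in LP (background 3.87%), and 15 were at least 2 times lower (background 3.29%). By 200 h 22 genes in LP stood at or below 50% of their level at 0 h (background 5.33%). Chilling values of both genotypes chose the genes, and the rule barred a rise in LP. Nothing is therefore read from these counts against their backgrounds.

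Genes lay close to each limit on both sides. Just inside the 4-fold limit were PRUPE_3G305800 (4.04) and PRUPE_6G069400 (4.10), and just outside PRUPE_3G197000 (3.97) and PRUPE_4G235800 (3.96). At the LP limit, PRUPE_1G391300 (1.99) and PRUPE_6G015500 (1.97) were kept, and PRUPE_6G131400 (2.02) and PRUPE_5G217900 (2.02) were not. At the level limit, PRUPE_8G226800 (5.13 CPM) and PRUPE_8G155000 (5.18 CPM) were kept, and PRUPE_2G266100 (4.98 CPM) and PRUPE_1G127200 (4.80 CPM) were not. The number of genes was 97 with a 6-fold limit and 237 with a 3-fold limit.

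As a description, with no test, genes were also chosen on 2 replicate numbers of every chilling group and read in the third. The left-out libraries belong to the same groups and may share their source with those that chose the genes. Leaving out replicate 1, 2 or 3 chose 153, 146 or 165 genes, of which 141, 140 and 147 were among the 154. In the left-out libraries 139, 137 and 138 of these genes were at least 4 times higher in JB at 200 h than at 0 h, and this held for 1.83%, 1.94% and 1.79% of all tested genes. All of the genes so chosen were at least 2 times higher there (backgrounds 8.05%, 9.88% and 7.65%). JB at 200 h was the highest of the 7 left-out JB libraries for 148, 145 and 155 genes (backgrounds 15.3%, 15.7% and 13.8%). The median log2 ratio of 200 h to 0 h in the left-out libraries was 2.77, 2.86 and 2.57 in JB and -0.15, -0.14 and -0.16 in LP.

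Outside the 154, the genes whose chilling course was most like the median course of the set, by Pearson correlation of log2(CPM + 0.5) over the 14 chilling group means, were PRUPE_4G056600 (0.98), PRUPE_8G206400 (0.98) and PRUPE_1G291500 (0.96). They missed the rule by level, by fold or by both. PRUPE_4G056600 reached 4.28 CPM in JB at 200 h, and PRUPE_8G206400 rose 2.45 times over 0 h. PRUPE_1G291500 reached 2.66 CPM and rose 2.59 times. In LP PRUPE_4G056600 had 0.545 CPM at 12 d of warmth and 0.682 CPM at 16 d (edgeR adjusted p = 0.71). PRUPE_8G206400 had 44.5 and 57.7 CPM (adjusted p = 4.32e-05), and PRUPE_1G291500 had 0.961 and 1.72 CPM (adjusted p = 0.0481).

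At 22 °C the genes were first higher in JB and later higher in LP. JB was already higher at the end of chilling, with a median of group means of 1.73 CPM at 1000 h against 0.855 CPM in LP. The median log2 ratio of 1 d to 1000 h was 0.94 in JB and -0.003 in LP, a description that was not tested. All comparisons of warm libraries used edgeR's quasi-likelihood test with Benjamini-Hochberg adjustment over all tested genes, and a gene was called at an adjusted p under 0.05. At 1 d of warmth 116 of the 154 genes were called lower in LP than in JB (background 21.6%) and 7 higher (background 18.7%). The median log2 difference was -1.62, against 0.00 over all tested genes. The 3 JB libraries of 1 d had medians of 4.70, 4.18 and 4.63 CPM over the genes and the 3 LP libraries had 1.19, 1.12 and 1.06 CPM, with no overlap. For 116 single genes every JB library of 1 d stood above every LP library (background 28.8%).

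The lower level of LP lasted to 12 d and then turned. At 12, 16 and 20 d the median of the group means was 4.12, 3.08 and 1.49 CPM in JB, and 1.68, 6.50 and 4.37 CPM in LP. The turn thus joined a rise in LP at 16 d with a fall in JB, and from 16 to 20 d both medians fell. Day 20 was the start of bloom in JB but not in LP. Stage and genotype cannot be told apart in these comparisons by day. At 4 d 107 genes were called lower in LP (background 26.1%) and 12 higher (background 25.8%), and at 8 d 101 lower (background 19.6%) and 12 higher (background 18.6%). At 12 d 102 were called lower (background 28.8%) and 12 higher (background 29.1%), the same counts as without the 2 libraries that stood apart. At 16 d 91 genes were called higher in LP (background 31.6%) and 26 lower (background 32.7%). At 20 d 96 were called higher (background 37.0%) and 28 lower (background 34.9%). At least 2-fold, 97 genes were lower in LP at 1 d (background 10.3%) and 4 were higher (background 3.12%). With the same minimum 84 were lower at 4 d (background 9.3%) with 5 higher (background 7.6%), 75 were lower at 8 d (background 7.81%) with 5 higher (background 4.74%), while 16 were lower at 16 d (background 16.4%) with 79 higher (background 8.42%). The median log2 difference of LP to JB was -1.34 at 4 d, -1.06 at 8 d and -1.21 at 12 d, then 1.07 at 16 d and 1.49 at 20 d. Of the 154 genes, 78 were called both higher in JB at 1 d and higher in LP at 16 d (background 8.05%).

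Averaged over the 6 shared warm days, 89 of the genes were called lower in LP (background 32.5%) and 27 higher (background 36.2%), with a median log2 difference of -0.51. Without the 2 libraries that stood apart 90 were lower and 26 higher. This mean joins days of opposite sign. A difference of at least 2-fold in it was called for 44 genes lower (background 8.15%) and 4 higher (background 3.84%). PRUPE_6G017200 was called higher by 1.03 ± 0.07 on the log2 scale (SE, adjusted p = 2.17e-20), with 10.9 CPM in LP and 6.83 CPM in JB. PRUPE_8G155000 was called higher by 0.72 ± 0.12 (adjusted p = 2.7e-07), with 8.10 CPM in LP and 3.64 CPM in JB.

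The rise in LP came between 12 and 16 d of warmth, a step that was singled out after the data had been seen. The median of the LP group means was 1.15 CPM at 1 d, 1.43 CPM at 4 d, 1.78 CPM at 8 d and 1.68 CPM at 12 d, and then 6.50 CPM at 16 d and 4.37 CPM at 20 d. The LP libraries of 12 d had medians of 1.71, 1.77 and 1.70 CPM and those of 16 d 6.25, 6.24 and 6.27 CPM. The spread among libraries within each day was thus small beside the step. No time is labelled as repeated on another occasion. For this step, as for JB at 200 h, time and sampling occasion cannot be told apart. The genes' share of all counts went from 0.111% to 0.252%. From 12 to 16 d 103 of the 154 genes rose (background 15.7%), 6 fell (background 16.4%) and 45 were not called. A rise of at least 2-fold was called for 79 genes (background 4.57%) and a fall of that size for 0 (background 2.53%). The median log2 change was 1.22, or 1.18 with groups without reads set to 3 counts, against 0.00 over all tested genes. For 109 genes all 3 LP libraries of 16 d stood above all 3 of 12 d (background 19.3%).

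The 79 genes that rose at least 2-fold made up 51.3% of the 154 genes and 8.16% of the 968 genes that did so among all tested. Of the 154, 72 had their highest LP warm mean at 16 d (background 14.5%), 37 at 20 d (background 11.6%) and 24 at 28 d (background 34.1%). The other LP maxima fell on 1 d for 6 genes (background 13.5%), 4 d for 4 (background 10.7%), 8 d for 6 (background 6.93%), 12 d for 3 (background 4.68%) and 24 d for 2 (background 4.0%). In JB the highest warm means were spread over the days, with 37 genes at 1 d (background 15.7%), 16 at 4 d (background 8.49%), 30 at 8 d (background 18.9%), 33 at 12 d (background 15.2%), 16 at 16 d (background 16.9%) and 22 at 20 d (background 24.9%). The LP warm maximum was at least 2 times LP at 0 h for 103 genes (background 36.1%) and at least 4 times for 68 (background 12.6%). These counts by day take the larger of group means and were not tested.

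**Figure D2:**
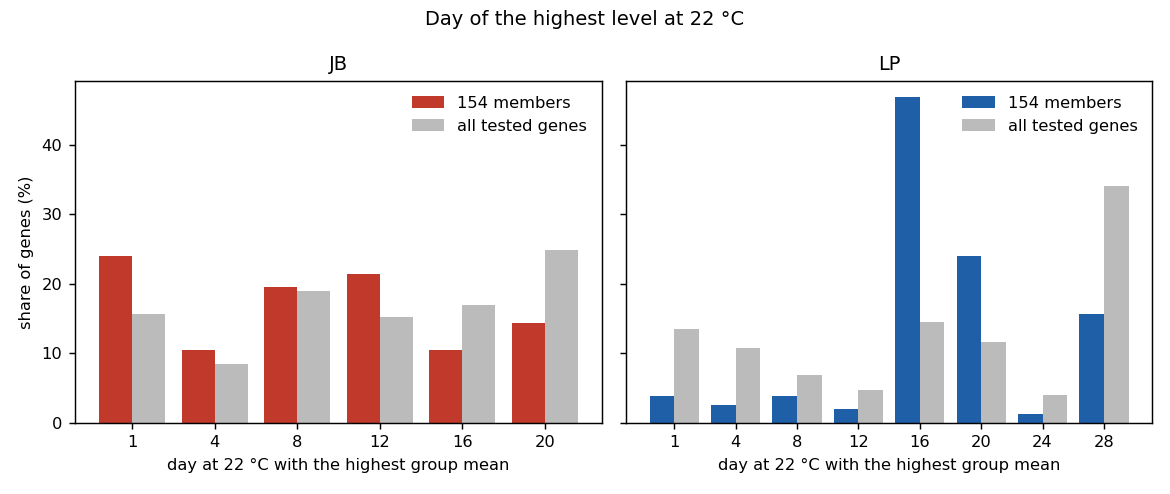
Share of genes in percent (vertical axis) with their highest group mean at each day of 22 °C (horizontal axis), for the 154 genes in colour and all 21168 tested genes in grey, in JB (left) and LP (right). In LP 46.8% of the 154 genes peak at 16 d against 14.5% of all tested genes.

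The LP level at 16 d was usually below the JB chilling peak. As a percentage of the JB mean at 200 h it had a median of 27.1 and ran from 0 to 589, and 49 genes reached 50. The highest warm mean was above JB at 200 h for 36 of the 154 genes in LP and for 34 in JB. Of the other 96 genes that met the JB conditions, this held for 34 in LP and for 28 in JB. Of the 60 genes under 1 CPM in all LP chilling groups, 48 reached 1 CPM and 30 reached 5 CPM in some LP warm group. Another 12 stayed under 1 CPM in all 15 LP groups, and none of the 154 was without reads in LP. The counts in this paragraph have no share over all tested genes beside them and describe the set only.

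PRUPE_7G050900 and PRUPE_7G051300 had the largest ratio of LP warm maximum to LP at 0 h. PRUPE_7G050900 had no read in the 3 LP libraries of 0 h and 0, 0.153 and 0.267 CPM in those of 200 h, when JB had 64.9, 57.7 and 65.5 CPM. In warmth LP had 0.0792, 0 and 0.152 CPM at 1 d, 4.52, 3.81 and 3.72 CPM at 12 d, 152, 168 and 150 CPM at 16 d and 105, 119 and 113 CPM at 20 d. The LP libraries of 16 d thus held over 2 times the JB level at 200 h. The rise from 12 to 16 d was 5.31 ± 0.35 on the log2 scale (SE, n = 3 a group, edgeR adjusted p = 1.69e-20). In JB PRUPE_7G050900 had 23.6, 23.4 and 24.8 CPM at 1 d and 228, 249 and 70.5 CPM at 12 d, the lowest being the library that stood apart, and 1.87, 1.30 and 2.55 CPM at 20 d. PRUPE_7G051300 followed almost the same course, with a Pearson correlation of 0.9985 over the 28 group means of log2(CPM + 0.5), and rose by 5.46 ± 0.35 in LP from 12 to 16 d (adjusted p = 1.13e-21). If both are similar copies, reads may have been split between them, and their single values are uncertain.

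PRUPE_1G393100 and PRUPE_2G045000 had the largest rises from 12 to 16 d in LP. PRUPE_1G393100 had 1 read in the 3 LP libraries of 12 d, then 11.2, 11.8 and 10.1 CPM at 16 d and 1.95, 2.01 and 1.57 CPM at 20 d (edgeR adjusted p = 7.43e-21 for 16 d against 12 d). PRUPE_2G045000 had 0.101, 0.265 and 0 CPM at 12 d, 23.1, 24.3 and 30.1 CPM at 16 d and 5.69, 3.74 and 4.35 CPM at 20 d. Its change from 12 to 16 d was 7.55 ± 0.39 (adjusted p = 6.59e-27). At 16 d the level of PRUPE_2G045000 in LP overlapped its JB pulse of 30.0, 22.8 and 19.8 CPM at 200 h, while JB at 12 d of warmth had 1.61, 1.41 and 1.08 CPM.

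**Figure D3:**
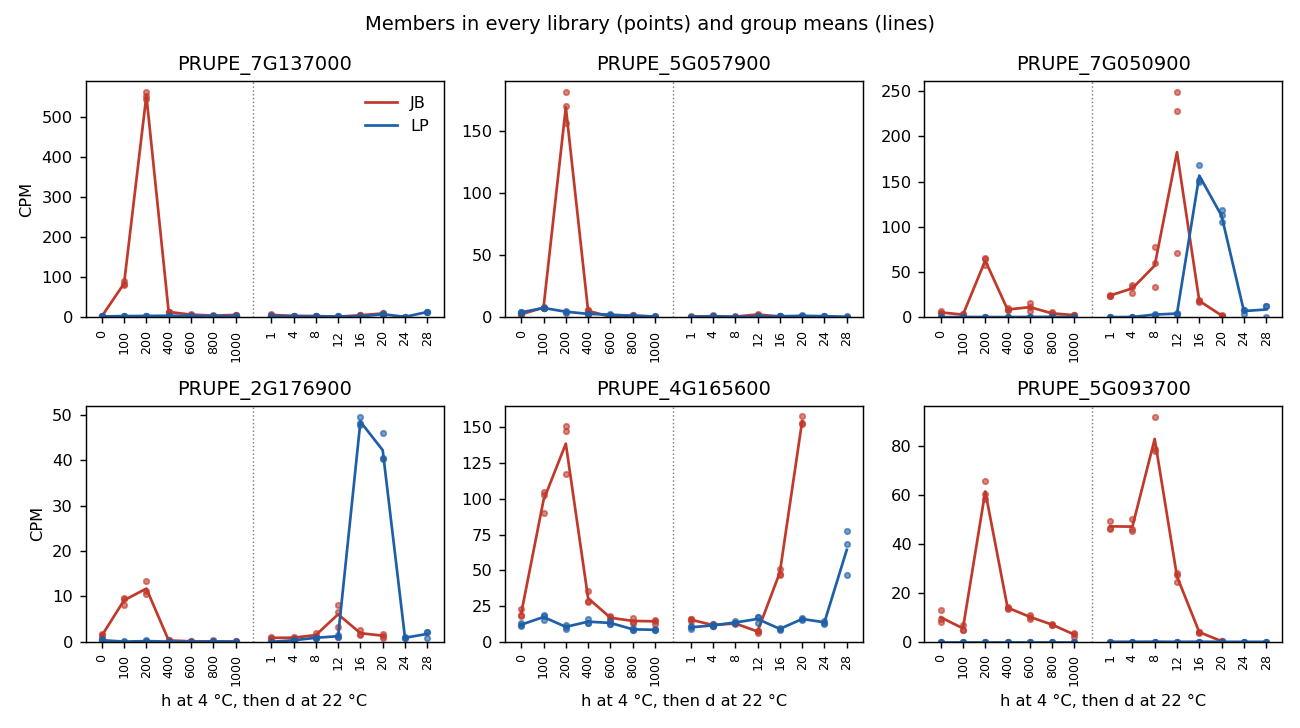
CPM (vertical axes, each scaled to its gene) of 6 of the genes in every library (points) with group means (lines), JB in red and LP in blue, over hours at 4 °C and then days at 22 °C, parted by the dotted line. PRUPE_7G137000 and PRUPE_5G057900 peak in JB at 200 h alone. In LP, PRUPE_7G050900 and PRUPE_2G176900 peak at 16 d. PRUPE_7G050900 is higher still in JB at 12 d of warmth, with a mean of 182.5 CPM against 156.6 CPM in LP at 16 d. PRUPE_4G165600 is highest of its warm days at the last one in both genotypes, and PRUPE_5G093700 has 5 reads over all LP libraries.

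The sizes of the chilling peak and of the warm step were set side by side across genes. The rule cut on the JB ratio, so its range among the 154 genes is truncated. The Pearson correlation of the log2 ratio of JB at 200 h to 0 h with that of LP at 16 d to 12 d was 0.131 over the 154 genes (Spearman 0.166), and 0.291 over all 21168 tested genes, the 154 included (Spearman 0.239). Without the 250 genes that met the JB conditions it was 0.215 over 20918 genes (Spearman 0.224). These are correlations across genes, which are not independent replicates, and the 2 ratios share no library. Over all tested genes the correlation of the same LP ratio with JB at 100, 400, 600, 800 and 1000 h over 0 h was 0.130, -0.0102, -0.0759, -0.0194 and -0.0847. The JB ratios share the libraries of 0 h, so these values are not independent of each other.

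**Figure D4:**
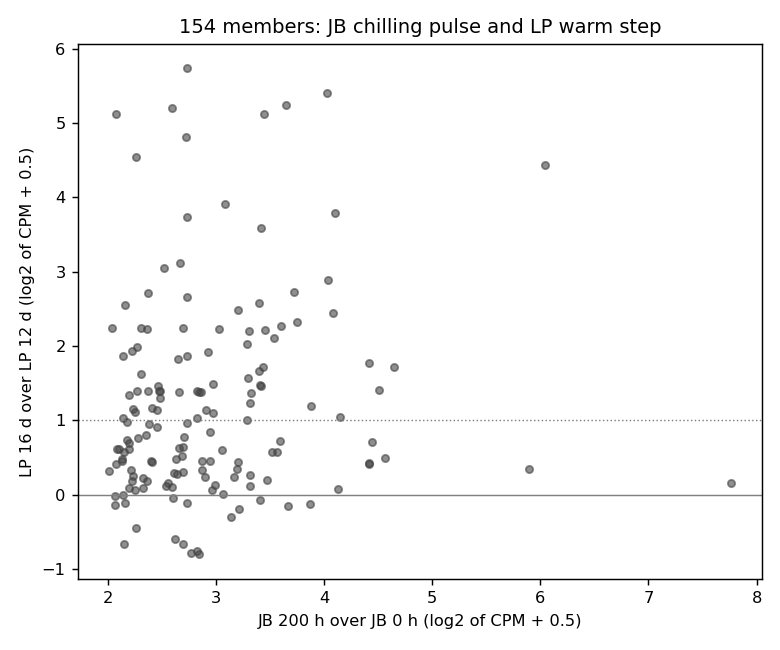
Each point is 1 of the 154 genes, with the log2 ratio of JB at 200 h to JB at 0 h (horizontal axis) and the log2 ratio of LP at 16 d to LP at 12 d (vertical axis), both on CPM + 0.5. The solid line marks no change and the dotted line 2-fold, and 103 of the 154 genes were called higher at 16 d.

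For 2 of the genes with the largest chilling ratio a step in LP was not called. PRUPE_7G137000 had 1.81, 1.68 and 1.81 CPM in LP at 12 d and 1.69, 2.97 and 1.40 CPM at 16 d, which overlap (log2 change 0.19 ± 0.25, edgeR adjusted p = 0.643). It was higher at the start of bloom, at 12.8, 12.2 and 13.8 CPM in LP at 28 d (2.14 ± 0.15 above 1 d, adjusted p = 2.24e-20) and 9.33, 9.64 and 8.99 CPM in JB at 20 d (0.82 ± 0.15 above 1 d, adjusted p = 8.67e-07), all far below the JB pulse. PRUPE_5G057900 had 0.658, 0.892 and 0.701 CPM in LP at 16 d (0.72 ± 0.56 against 12 d, adjusted p = 0.354). Among the most abundant genes of the pulse, PRUPE_1G245400 rose in LP from 2.61, 2.12 and 3.19 CPM at 12 d to 11.7, 11.6 and 13.5 CPM at 16 d (2.26 ± 0.17, adjusted p = 5.53e-19). PRUPE_1G127800 rose there by 1.17 ± 0.12 (adjusted p = 3.04e-13) and PRUPE_6G277500 by 0.61 ± 0.13 (adjusted p = 0.000204).

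Between 1 and 20 d of warmth most of the genes fell in JB, and most rose in LP. Day 20 was the start of bloom in JB, while LP reached it at 28 d. Stage and genotype cannot be told apart in this contrast. In JB 90 were called lower at 20 d than at 1 d (background 35.7%) and 31 higher (background 34.2%), with a median log2 change of -1.21. At least 2-fold, 80 fell (background 16.1%) and 20 rose (background 16.4%). In LP 107 were called higher at 20 d than at 1 d (background 27.0%) and 10 lower (background 26.8%), with a median log2 change of 1.77, or 1.57 with groups without reads set to 3 counts. At least 2-fold, 91 rose in LP (background 12.0%) and 5 fell (background 6.15%). The test of the difference of these responses called 114 genes more positive in LP (background 31.6%) and 11 more negative (background 26.7%), with a median difference of 2.83.

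PRUPE_2G176900 showed the LP rise from no reads. It had no read in the 3 LP libraries of 1 d, 1.61, 1.15 and 0.957 CPM at 12 d, 47.8, 49.5 and 48.1 CPM at 16 d and 40.5, 45.9 and 40.2 CPM at 20 d. Taking 3 counts as the upper limit for the group without reads, the level at 20 d was at least 602-fold higher (edgeR adjusted p = 1.25e-32). The LP level at 16 and 20 d exceeded the JB pulse at 200 h, which held 13.3, 11.3 and 10.6 CPM. PRUPE_4G230400 had 1 read in the LP libraries of 1 d and 47.5, 55.2 and 52.2 CPM at 20 d (adjusted p = 2.67e-30), against 17.4, 17.5 and 16.0 CPM in JB at 200 h.

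PRUPE_7G051600 was a case of opposite timing. JB had 17.9, 18.6 and 20.6 CPM at 1 d and no read at 20 d, at least 207-fold lower by the same limit (edgeR adjusted p = 1.15e-28). LP had 0.201, 0.531 and 0.319 CPM at 12 d, 42.9, 46.0 and 45.5 CPM at 16 d, 2.40, 4.02 and 3.15 CPM at 20 d and 0.375, 0.306 and 0.107 CPM at 28 d. In the JB pulse at 200 h it had 6.88, 7.03 and 8.92 CPM, below both warm maxima. From 16 to 28 d it fell in LP by 7.45 ± 0.29 in log2 units (adjusted p = 2.19e-33).

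The LP rise was mostly over by the start of bloom. From 16 to 28 d, a comparison also added after the data had been seen, 99 of the 154 genes fell (background 34.3%) and 22 rose (background 33.6%), with a median log2 change of -1.58. Without the 2 libraries that stood apart 94 fell and 23 rose. Compared with 1 d, 78 genes were still higher at 28 d (background 30.6%) and 39 lower (background 31.8%), or 77 and 35 without those libraries. PRUPE_6G169700 rose from 6.66 CPM at 1 d to 14.9 CPM at 16 d and ended at 0.656, 0.715 and 0.965 CPM at 28 d (-3.22 ± 0.23 for 28 d against 1 d, adjusted p = 2.18e-20). PRUPE_7G141500 ended at 1.59, 2.04 and 0.107 CPM at 28 d, from 7.61, 6.95 and 7.22 CPM at 1 d (-2.62 ± 0.24, adjusted p = 2.59e-15), and by -2.09 without the libraries that stood apart. PRUPE_1G169200 had 7.33, 5.95 and 6.93 CPM at 16 d and 1 read over the 3 libraries of 28 d (edgeR adjusted p = 1.66e-19 for 28 d against 16 d).

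Called higher at the last sampled day than at 1 d in both genotypes were 25 of the 154 genes (16.2%), a share below that of all tested genes (background 20.7%). The 6 named here were among those the comparisons gave as the largest rises, falls or differences. PRUPE_4G165600 had 148, 151 and 118 CPM in the JB pulse. In JB it had 16.0, 15.8 and 14.8 CPM at 1 d and 158, 153 and 152 CPM at 20 d, a rise of 3.43 ± 0.12 on the log2 scale (edgeR adjusted p = 4.06e-37). In LP it stood at 15.5, 16.4 and 15.9 CPM at 20 d, no library near JB, and reached 77.5, 68.4 and 47.1 CPM at 28 d. The response from 1 to 20 d differed between genotypes by -2.79 ± 0.19 (adjusted p = 1.02e-21). It fell in LP from 12 to 16 d by 0.79 (SE 0.15, adjusted p = 1.89e-05), against the direction of most of the genes. PRUPE_4G165500, the neighbour of PRUPE_4G165600 in the numbering, fell in the same step by 0.78 (SE 0.10, adjusted p = 1.36e-09), from 42, 43.8 and 41.6 CPM to 22.4, 23.2 and 26.7 CPM, and reached 158, 154 and 111 CPM at 28 d.

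PRUPE_4G166000 rose in JB from 9.67, 10.7 and 10.8 CPM at 1 d to 154, 147 and 145 CPM at 20 d (3.96 ± 0.22, edgeR adjusted p = 1.36e-26), above its pulse of 33.8, 33.0 and 31.6 CPM. In LP it had 11.1, 10.9 and 4.61 CPM at 28 d. PRUPE_1G128200 had 39.8, 35.6 and 37.3 CPM in JB at 20 d and 4.00, 2.83 and 3.43 CPM in LP, and its response was more negative in LP by -2.55 ± 0.37 (adjusted p = 9.64e-09). PRUPE_6G278400 rose in LP from 1.32, 1.88 and 1.25 CPM at 16 d to 25, 28.6 and 28.2 CPM at 28 d (4.09 ± 0.19, adjusted p = 5.39e-30), a level that overlaps its JB pulse of 26.9, 23.1 and 20.1 CPM. PRUPE_6G195100 rose over the same days by 2.71 ± 0.29 (adjusted p = 5.44e-13), to 7.21, 6.95 and 9.65 CPM. In JB PRUPE_6G195100 had a mean of 2.89 CPM at 16 d and 1.52 CPM at 20 d, against 0.712 CPM at 1 d.

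PRUPE_5G093700 and PRUPE_2G043800 had the largest called falls of LP against JB over the shared warm days. PRUPE_5G093700 had 5 reads over the 45 LP libraries and 12066 over the 39 JB libraries. In JB it had 65.4, 60.3 and 58.2 CPM at 200 h of chilling, 45.8, 49.1 and 46.3 CPM at 1 d of warmth, 91.7, 77.7 and 78.7 CPM at 8 d and 0.355, 0.261 and 0.204 CPM at 20 d. Over the shared warm days it averaged 34.6 CPM in JB and was called lower in LP (edgeR adjusted p = 4.44e-24). From 1 to 20 d it fell in JB by 7.24 (SE 0.22, adjusted p = 1.6e-30). PRUPE_2G043800 had 42 reads over the LP libraries and 6044 over the JB libraries, with 27.3, 25.7 and 20.1 CPM in the JB pulse and 41.3, 39.4 and 42.5 CPM in JB at 16 d (LP against JB over the shared warm days, adjusted p = 2.33e-31). Of the 42 LP reads 24 were at 28 d, in libraries with 1.41, 0.919 and 0 CPM, the last being the one that stood apart, and PRUPE_2G043800 was called higher there than at 1 d, where it had no read (adjusted p = 4.83e-05). Whether LP carries copies of these genes that its reads cannot be assigned to was not tested.

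Few genes fell in LP between 1 and 20 d. PRUPE_4G033500 had 6.26, 5.42 and 3.87 CPM at 1 d and 1.33, 0.731 and 0.834 CPM at 20 d (-2.41 ± 0.29, edgeR adjusted p = 5.37e-11), and it also fell in JB. PRUPE_1G127900 had 67.6, 74.0 and 65.9 CPM at 1 d and 17.6, 17.4 and 15.7 CPM at 20 d (-2.04 ± 0.13, adjusted p = 1.09e-22). In JB at 1 d it had 28.5, 33.4 and 26.7 CPM, below every LP library of that day, so it went against the 116 genes that were lower in LP at 1 d.

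Both calls, lower in LP at 1 d and risen in LP from 12 to 16 d, were made for 88 of the 154 genes (background 7.62%). The first call alone was made for 28 (background 14%), the second alone for 15 (background 8.13%) and neither for 23 (background 70.3%). There were 7 pairs, 14 genes in all, whose identifiers follow each other in the table's numbering. The Pearson correlation within these pairs over the 28 group means ran from 0.616 to 0.942. Overlap or shared reads of such neighbours was not tested. Counted once a pair, 147 genes remained, of which 100 rose (background 15.7%) and 5 fell (background 16.4%) in LP from 12 to 16 d.

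The other 96 genes with a JB pulse at 200 h did reach 2 times LP at 0 h during chilling. At 1 d 60 of the 96 were called lower in LP (background 21.6%) and 8 higher (background 18.7%). From 12 to 16 d 47 rose in LP (background 15.7%) and 5 fell (background 16.4%), with a median log2 change of 0.56. Of the 96, 37 rose at least 2-fold (background 4.57%), 38.5% of the 96 and 3.82% of the 968 genes with that call. The response from 1 to 20 d was called more positive in LP for 60 (background 31.6%) and more negative for 13 (background 26.7%). The difference between the 154 and the 96 genes was not tested.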

How the data were processed

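Messenger RNA was measured in floral buds of JB and LP, in 28 groups of 3 libraries that the labels define by genotype, temperature and duration. A Norgen kit served for RNA extraction and the TruSeq Stranded mRNA kit for the libraries, per the labels' protocols. Per the submitters' processing notes, FastQC 0.11.9, Trimmomatic, STAR 2.6.0 and edgeR were used. Which program counted the reads, on which build and annotation and with which strand option, is not given in the sources used here, so reads of overlapping or antisense genes may be mixed. The values deposited by the authors are raw counts per gene, whole numbers without normalization.

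CPM were computed from the deposited counts and column totals. The 154 genes and the lists were chosen with earlier results of these data known, by the rule stated with the results. The low-count filter (filterByExpr, by group) left 21168 genes to test. All 154 were among them, and they could pass it through JB at 200 h alone. With TMM scaling, 1 quasi-likelihood fit in edgeR 4.0.16 (R 4.3.3) covered all 84 libraries, with a mean per group, 56 residual degrees of freedom and a common dispersion of 0.00587 (biological coefficient of variation 7.7%). Each comparison's p-values were Benjamini-Hochberg adjusted across the tested genes, and 0.05 was the threshold for a call. Standard errors were derived from the log2 change and its F statistic. Background is the share of all tested genes with the same call. For a group without reads, 3 counts in total were taken as the limit, for counting error alone. The scripts were tested on simulated data with known changes.

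Genes were named by rule: the 4 highest in JB at 200 h, the 4 with the largest ratio to 0 h, those nearest the limits, the 2 largest called rises and falls per comparison with at least 5 CPM in the higher group, the 2 with the largest LP warm rise over 0 h, and the 3 most alike outside the set. Those given further values outside their comparison were described after these were seen. The 6 DAM genes named in the table served as markers of the dormant bud. Lists by gene product could not be filled, since the table and the reference (RefSeq genes) share 0 identifiers, and no sequences are shown. Alternatives were DESeq2 1.42.0 (Wald test), edgeR with DESeq2's size factors, omitting the low-count filter, fits of only the groups compared, a block for replicate number, a 2-fold minimum, leaving out each replicate number or the 2 libraries that stood apart, other limits of the rule, and 1 gene per neighbouring pair. The steps from 12 to 16 d and from 16 to 28 d in LP, the joint calls, and the alternatives for single days were added after the data had been seen.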

Additional observations from a re-analysis of the deposited data

Results flagged for a closer look

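The warm response from 1 to 20 d was tested for a difference between the genotypes in edgeR's quasi-likelihood fit. It was called more positive in LP for 114 of the 154 genes (background 31.6%) and more negative for 11 (background 26.7%). By the rule for named genes, the largest differences among them were in PRUPE_7G141300 (14.9 on the log2 scale, adjusted p = 1.31e-21) and PRUPE_7G051600 (14, adjusted p = 1.39e-27) on the positive side. Both sizes rest on groups without reads, depend on the prior count and are no bound. PRUPE_7G141300 had 0, 0 and 0 CPM in LP at 1 d and 9.42, 12.1 and 11.7 CPM at 20 d, while JB had 3.76, 3.22 and 2.87 CPM at 1 d and 0, 0 and 0.306 CPM at 20 d. On the negative side were PRUPE_4G165600 (-2.79, adjusted p = 1.02e-21) and PRUPE_1G128200 (-2.55, adjusted p = 9.64e-09), which rose towards bloom. LP was sampled for longer before bloom began, and stage and genotype cannot be told apart in this difference.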

How the results depend on the processing

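Among the fits run, the calls of the named genes kept their direction and their side of the threshold in all 250 values recomputed. The number of genes in the set was 237 with a 3-fold limit and 97 with a 6-fold limit, and 146 to 165 without a replicate number. With TMM-scaled totals it was 151, of which 147 were shared. With a 2-fold minimum the counts that moved by over 1.5 times were 44 lower and 4 higher in LP over the shared warm days, 20 higher in JB at 20 d, 5 lower in LP at 20 d and 0 lower in LP at 16 d against 12 d. For LP against JB on single days they were 4 higher at 1 d, 5 at 4 d and 5 at 8 d, and 16 lower at 16 d. Fitted alone, the LP groups of 28 and 1 d gave 52 higher and 29 lower. The rise in LP from 12 to 16 d was called for 107 genes with DESeq2, 99 without a low-count filter and 87 to 95 without a replicate number. Same-numbered libraries did not deviate together (median correlation -0.00104 over 1134 pairs), and 20 of 84 libraries correlated best with their own number. This check sees common deviations of expression only. Whether same-numbered samples share a source was not tested. With the replicate block the counts higher and lower were 27 and 89 over the shared warm days, 31 and 91 in JB at 20 d, 107 and 10 in LP at 20 d, 78 and 38 in LP at 28 d, 114 and 11 for the difference of responses, 103 and 6 in LP at 16 d against 12 d, and 21 and 99 at 28 d against 16 d. Shares of all tested genes are given with the results for the main fit alone. Counts from the other fits, and those without the 2 libraries that stood apart, have no such share beside them. They describe the calls of the set only. Where a group had no read, depth limits the size of a change to a bound. The identifiers carry no names, so no pathway could be read from the set.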
